A study of Homo sapiens with 6 samples.

Results

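The major histocompatibility complex (MHC) on chromosome 6 and its 7 alternative haplotype sequences held 527 of the 28345 peaks deposited for 6 libraries. Members were chosen by position alone: peaks that overlap chr6:28477797-33448354 (hg19, 4.97 Mb), called the reference MHC here, and peaks on the sequences chr6_apd_hap1, chr6_cox_hap2, chr6_dbb_hap3, chr6_mann_hap4, chr6_mcf_hap5, chr6_qbl_hap6 and chr6_ssto_hap7. The reference MHC held 87 of them, and the other 440 lay on the alternative sequences. Of the members, 152 were H3K79me2 peaks of control and 124 of knockdown, and 107 were H3K79me3 peaks of control and 144 of knockdown.

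The MHC is among the most gene-dense and most variable parts of the human genome. It carries the class I and class II genes, whose products present peptides to T cells, and the class III genes between them, which serve complement, inflammation and many general cell functions. The hg19 build stores further assemblies of this locus beside chromosome 6, each from a different haplotype, so the same genes recur on several sequences of the build. Methylation of histone H3 at lysine 79 is laid down by DOT1L, mostly over the first part of transcribed genes, and the dimethyl (me2) and trimethyl (me3) forms usually lie together. KDM2B is a JmjC-domain protein that binds CpG islands, and the series asks what its loss does to H3K79 methylation.

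All libraries came from 293T, a widely used cell line of human embryonic kidney origin in which SV40 large T antigen is expressed. The control line stably expresses the hairpin shCTL and the knockdown line the hairpin shKDM2B. Each line gave 1 H3K79me2 ChIP library (antibody ab3594), 1 H3K79me3 ChIP library (ab2621) and 1 input library without antibody. The series therefore has 1 library per group, so no difference below has a replicate check or a p-value, and the labels do not say whether a line is 1 clone.

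The H3K79me2 libraries held 16018517 tags in control and 13144744 in knockdown, and the H3K79me3 libraries 17044011 and 16389356, counted after removal of duplicates. A tag is 1 aligned read, and RPM below means tags of the called peaks per 1000000 of these tags. Tags were 47 bp and 46 bp long in the control H3K79me2 and H3K79me3 libraries and 50 bp in both knockdown ChIP libraries. The fragment lengths estimated by the caller were 148, 210, 180 and 126 bp for control H3K79me2, knockdown H3K79me2, control H3K79me3 and knockdown H3K79me3. A sequence shared by the reference and the alternatives offers a read several places to align. The sources used here do not give how such reads were placed, and neither this nor the tag length was tested for its part in any result.

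Both inputs were without a peak on any of the 8 sequences. Their lists held 1019 peaks for control and 946 for knockdown, with 64 and 45 on the rest of chromosome 6, and the nearest lay 664.876 kb and 764.935 kb outside the interval. All 527 members are thus ChIP peaks.

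Per Mb the reference MHC held more peaks than the rest of chromosome 6, counted up to the last peak of the chromosome. It held 4.63, 4.02, 3.82 and 5.03 peaks per Mb, against 1.84, 1.66, 1.38 and 1.86. These values are for control H3K79me2, knockdown H3K79me2, control H3K79me3 and knockdown H3K79me3. Within the reference MHC the peaks were grouped. When peaks of the 4 ChIP libraries within 1 kb were joined, they formed 25 sites, of which 10 lay between 3 and 3.5 Mb from the start of the interval, 6 between 4.5 and 5 Mb and 4 between 2 and 2.5 Mb. The longest stretches without a site ran 1398.99 kb (from 28891890 to 30290879), 796.451 kb (from 32143434 to 32939886) and 548.652 kb (from 30690536 to 31239189). An hg19 gene annotation was not used here, so sites are given by position and not by gene.

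**Figure D1:**
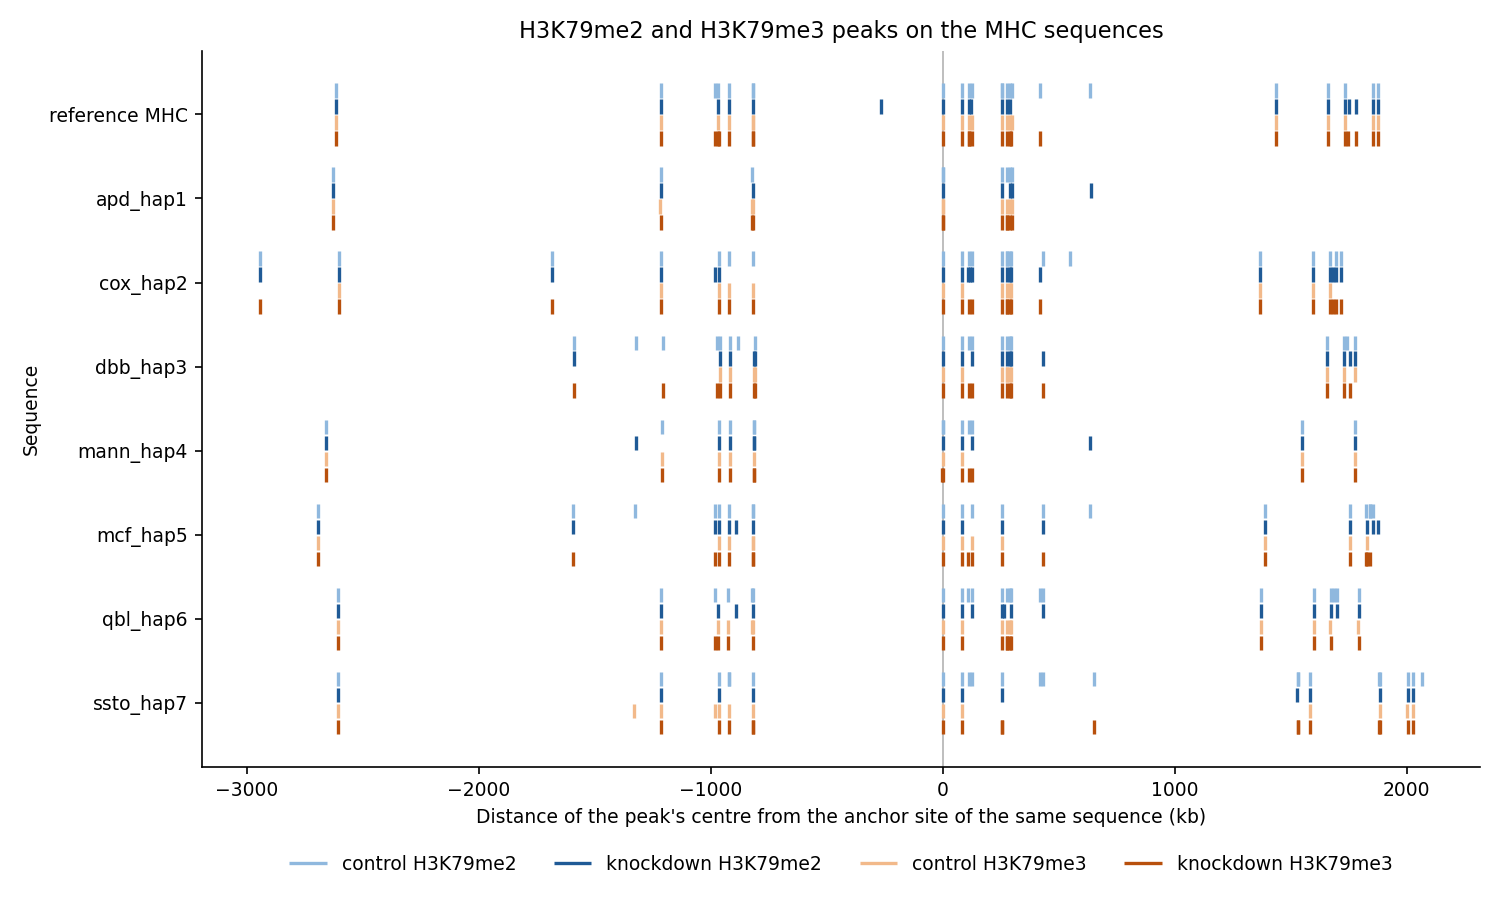
Position of every member peak on the 8 sequences, as the distance in kb from the site on all 8 sequences with the most tags (grey line at 0), with 1 row of ticks per ChIP library. The empty stretches and the dense group just right of the anchor recur on most sequences, and apd_hap1 lacks peaks on most of its right side.

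To compare copies of a place, regions of the alternative sequences were matched to the reference by their order, spacing and width, without any sequence alignment. Of 138 regions on the alternative sequences, 113 were matched to a reference site. Since spacing was used for the match, how alike the layouts are was not tested, and a match is not proof that 2 regions are copies. Together the 163 regions made 37 sites, of which 15 lay on at least 6 of the 8 sequences, 2 on all 8 and 8 on a single sequence.

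Peak number differed between lines in opposite directions for the 2 marks. In the reference MHC, H3K79me2 had 23 peaks in control and 20 in knockdown (ratio 0.870), and H3K79me3 had 19 and 25 (ratio 1.32). On the alternative sequences together, H3K79me2 went from 129 to 104 peaks (ratio 0.806) and H3K79me3 from 88 to 119 (ratio 1.35). H3K79me2 peaks were fewer in knockdown on 7 of 7 alternative sequences, with ratios from 0.545 to 0.957, and H3K79me3 peaks were more numerous on 7 of 7, from 1.06 to 1.64. These sequences share reads and are not replicates. The rest of the lists moved the same way, with ratios of 0.907 for H3K79me2 and 1.26 for H3K79me3, as did the rest of chromosome 6, with 306 and 276 H3K79me2 peaks and 229 and 308 H3K79me3 peaks in control and knockdown. These ratios depend on how many peaks each list holds. With the same number of peaks from both lists of a mark, the reference ratios were 1 for both marks, and those on the alternative sequences were 0.920 for H3K79me2 and 1.05 for H3K79me3. Among the higher-scoring 50% of each list, the H3K79me3 ratio was 1 in the reference MHC and turned to 0.933 on the alternative sequences.

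Peak number also differed widely between the sequences. In the order control H3K79me2, knockdown H3K79me2, control H3K79me3, knockdown H3K79me3, apd_hap1 had 9, 8, 10 and 11 peaks and mann_hap4 had 13, 12, 9 and 13, the fewest of the 8 sequences in each library, with ssto_hap7 also at 12 in knockdown H3K79me2. In the same order cox_hap2 had 23, 22, 14 and 23 peaks, the most of the alternative sequences in 3 of the 4 libraries. The widest gap between lines was the H3K79me2 count of ssto_hap7, with 22 peaks in control and 12 in knockdown. H3K79me3 showed its widest gap on cox_hap2, with 14 and 23.

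**Figure D2:**
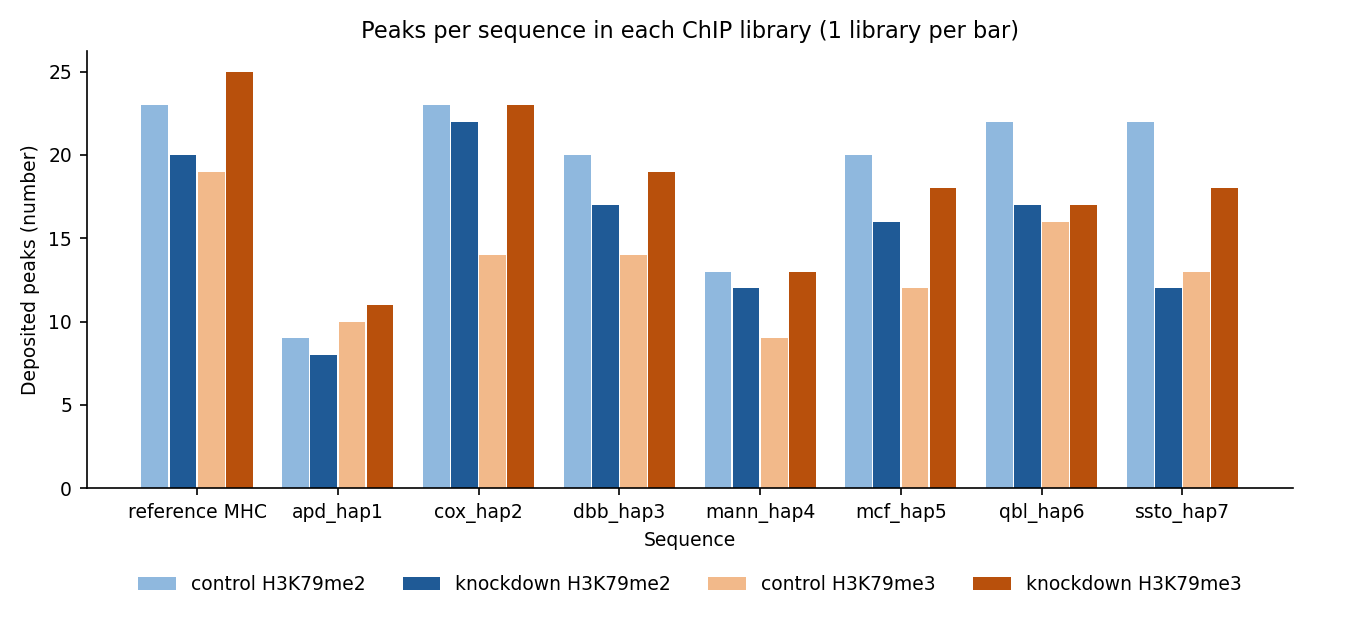
Number of deposited peaks per sequence, with 1 bar per ChIP library. The knockdown H3K79me2 bar is lower than its control on each of the 8 sequences and the knockdown H3K79me3 bar is higher, by 1 peak on apd_hap1 and qbl_hap6 and by 9 on cox_hap2.

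Counted on each sequence alone, MHC peaks were narrower and carried fewer tags than peaks elsewhere in all 4 libraries. In control H3K79me2 the median peak had 3.75 RPM and 1398 bp in the reference MHC, 3.50 RPM and 1276 bp on the alternative sequences, and 10.9 RPM and 2575 bp elsewhere. Knockdown H3K79me2 gave 3.99, 3.23 and 11.6 RPM in the same order, control H3K79me3 3.81, 3.73 and 9.45 RPM, and knockdown H3K79me3 3.23, 3.29 and 10.9 RPM. Each of these MHC medians was lower than the median elsewhere in its library. Per kb of called peak the levels were closer: 3.67, 3.18, 3.37 and 3.93 RPM per kb in the reference MHC for control H3K79me2, knockdown H3K79me2, control H3K79me3 and knockdown H3K79me3, against 6.23, 5.14, 5.63 and 7.01 elsewhere. Summed over the sequences with a peak at a site, the median RPM was 9.86, 6.54, 21.5 and 17.1 in the same order. These sums cover 34, 34, 21 and 29 sites. The H3K79me3 sums lay above the median peak elsewhere and the H3K79me2 sums below it. How reads shared by the sequences were placed is not known, so neither measure gives the level of the whole locus.

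The strongest site of the reference MHC was chr6:32939886-32945891. Its H3K79me2 region (32939886 to 32945577) had 455 tags in control and 283 in knockdown, which is 28.4 and 21.5 RPM, a log2 ratio of -0.40 (SE 0.11, from counting error only, as in each SE below). H3K79me3 at the same place (32939972 to 32945891) had 512 and 439 tags, 30.0 and 26.8 RPM, a log2 ratio of -0.17 (SE 0.09). Here H3K79me2 was lower in knockdown by more than counting error, and H3K79me3 was within 2 SE of equal.

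The next strongest sites differed in direction from each other. At chr6:33359562-33364975 both marks were higher in knockdown: H3K79me2 had 17.6 RPM in control and 22.0 in knockdown (log2 0.32, SE 0.12), and H3K79me3 at 33359634 to 33364133 had 13.6 and 20.4 RPM (log2 0.59, SE 0.12). At chr6:31505178-31509824, H3K79me2 had 19.3 and 16.4 RPM (log2 -0.23, SE 0.13), while H3K79me3 at 31505473 to 31509815 had 20.01 and 20.20 RPM (log2 0.01, SE 0.11). The H3K79me3 values of this last site are equal within counting error.

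Regions with a peak in both lines carried less H3K79me2 in knockdown. In the reference MHC the 16 such regions had a median log2 ratio of RPM, knockdown over control, of -0.36, with 3 of 16 above 0. The exact interval of this median, from the ranks of the regions, ran from -0.63 to -0.04. At least 1.5-fold more in control was seen in 4 of 16, where 3.85% of such regions in the whole list passed, and at least 1.5-fold more in knockdown in 0 of 16, where 17.1% passed. The 89 regions on the alternative sequences had a median of -0.40, with 23 lower and 6 higher by 1.5-fold. The 5460 H3K79me2 regions elsewhere had a median of 0.0014, and the medians of the 23 chromosomes ran from -0.07 (chromosome 5) to 0.10 (chromosome 3). The MHC medians lay below all of these.

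For H3K79me3 the median ratio in shared regions was above 0, by less than elsewhere. In the reference MHC the median log2 ratio over 19 regions was 0.17, with 14 above 0. The exact interval of this median, from the ranks of the regions, ran from -0.05 to 0.46. It includes 0, so a higher H3K79me3 level in knockdown is not shown for the reference MHC. At least 1.5-fold more in knockdown was seen in 4 of 19, where 50.8% of such regions in the whole list passed, and at least 1.5-fold more in control in 0 of 19, where 2.38% passed. The 82 regions on the alternative sequences had a median of 0.19, with 19 higher and 2 lower by 1.5-fold. The median elsewhere was 0.60 over 5119 regions, and the chromosome medians ran from 0.46 (chromosome 4) to 0.76 (chromosome 19). For both marks the MHC medians thus lay below the lowest chromosome median, a description that rests on 1 library per group. The reference medians rest on 16 H3K79me2 and 19 H3K79me3 regions, and stretches elsewhere of like size were not compared.

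**Figure D3:**
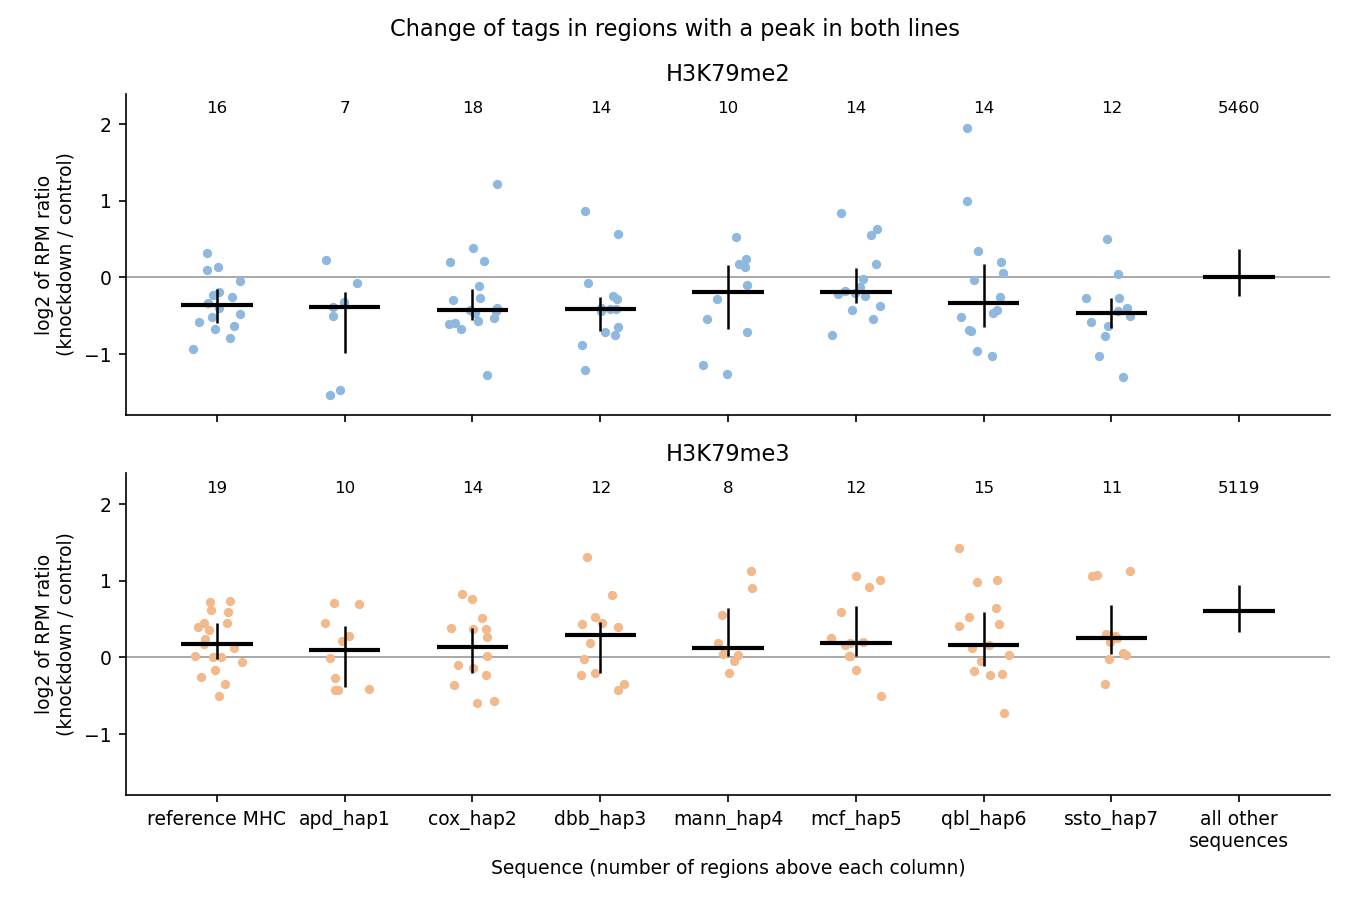
Log2 ratio of RPM, knockdown over control, of each region with a peak in both lines (points), by sequence, with the median (horizontal bar) and the middle 50% of regions (vertical bar); regions elsewhere are shown by these bars only. H3K79me2 medians lie below 0 on each of the 8 sequences, and H3K79me3 medians lie between 0.10 and 0.29, under the 0.60 elsewhere.

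Called width followed these ratios only in part. For H3K79me3 in the MHC its median ratio was below equal, while that of RPM was above. The median log2 ratio of called width was -0.11 in the reference MHC, -0.03 on the alternative sequences and 0.16 elsewhere for H3K79me2, and -0.14, -0.12 and 0.05 for H3K79me3. Per kb of called peak the H3K79me2 medians came to -0.23, -0.28 and -0.15 in the same order and the H3K79me3 medians to 0.32, 0.33 and 0.54. The distance from the rest of the lists was thus smaller per kb, most of all for H3K79me2. Summed over all called peaks, knockdown RPM over control was 0.743 in the reference MHC, 0.719 on the alternative sequences and 0.825 elsewhere for H3K79me2. For H3K79me3 it was 1.08, 1.24 and 1.46. Per kb of called peak the sums gave 0.866, 0.815 and 0.825 for H3K79me2, and 1.17, 1.19 and 1.24 for H3K79me3. By sums, H3K79me2 was thus lower in knockdown elsewhere too, and per kb its reference MHC ratio was not below that elsewhere. Regions elsewhere of a similar level were not lower. Among those whose summed RPM lay within the middle 50% of the reference MHC, the median log2 RPM ratio was 0.19 for H3K79me2 (1985 regions) and 0.80 for H3K79me3 (1956 regions). Outside the MHC, regions of chromosome 6 with the MHC's range of levels gave 0.07 (237 regions) and 0.56 (209 regions). Other alternative sequences of the build held only 7 such H3K79me2 regions, with a median of -0.13, and 5 H3K79me3 regions, with 0.53.

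**Figure D4:**
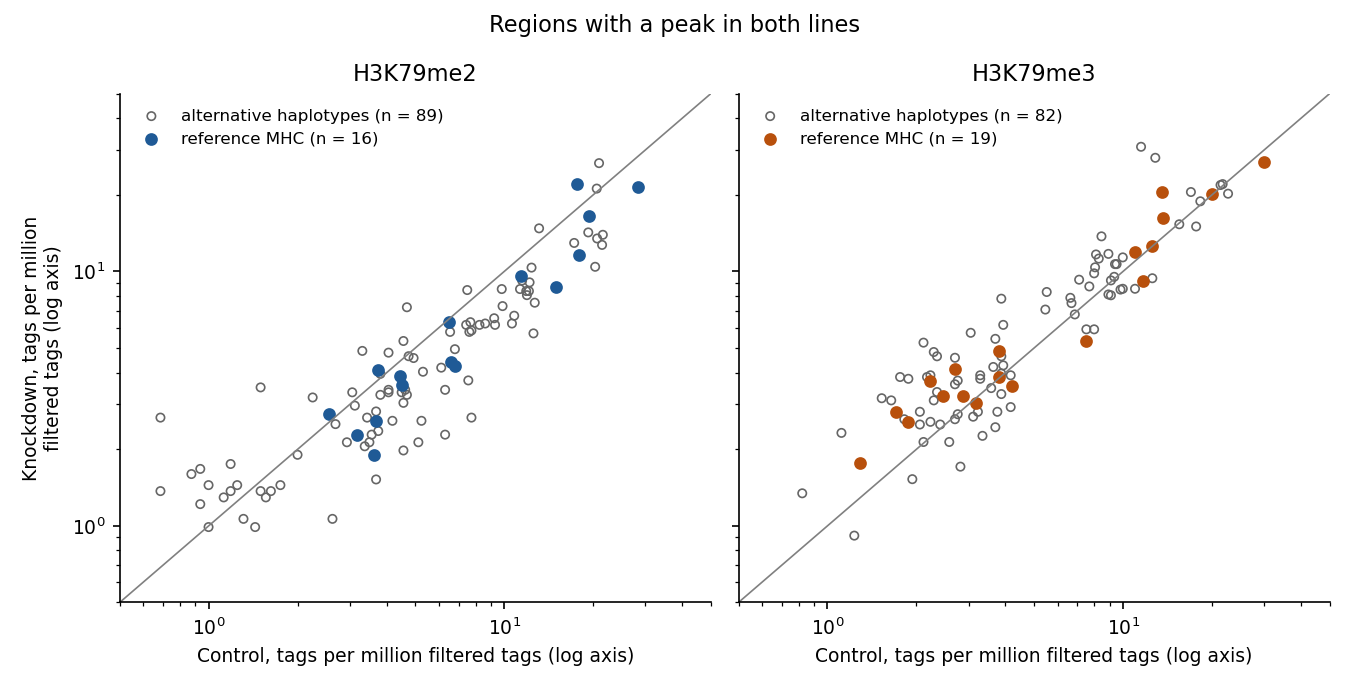
RPM of each region with a peak in both lines, control on the horizontal and knockdown on the vertical axis (both log), with the line of equal values. Most H3K79me2 regions of the reference MHC lie under the line (13 of 16), and most H3K79me3 regions lie above it (14 of 19).

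Per kb, the highest H3K79me2 ratios in the reference MHC were near 0. They were 0.05 at chr6:33359562-33364975, 0.0021 at chr6:31761548-31763607 (4.43 RPM in control and 3.88 in knockdown) and -0.04 at chr6:31505178-31509824. The lowest were -0.56 at chr6:33168657-33170323 (4.49 and 3.58 RPM), -0.47 at chr6:28890158-28891890 (3.75 and 4.11 RPM, with a called width of 1144 and 1733 bp) and -0.46 at chr6:30583855-30585046 (3.18 and 2.28 RPM). The region at 28890158 had more tags in knockdown and a wider call, so its RPM and its RPM per kb point opposite ways.

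For H3K79me3 the highest ratios per kb were 0.70 at chr6:31802670-31806212, 0.66 at chr6:30688126-30688990 (1.88 and 2.56 RPM) and 0.65 at chr6:31633913-31634775 (1.29 and 1.77 RPM). The region at 31802670 had 11.7 RPM over 3543 bp in control and 9.15 RPM over 1710 bp in knockdown, so that its RPM was lower in knockdown and its RPM per kb higher. The lowest ratios per kb were -0.10 at chr6:30689217-30690536 (2.87 and 3.23 RPM), -0.06 at chr6:31795517-31799483 (12.5 and 12.6 RPM) and -0.02 at the strongest site. None of these 3 differed from equal by more than 1 SE of counting error per region (0.29, 0.14 and 0.09).

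Peaks found in 1 line only were mostly weak. Of the H3K79me2 peaks in the reference MHC, 6 of 23 in control had no knockdown peak (26.1%, exact Clopper-Pearson 95% interval 10.2 to 48.4%, over the whole list 19.2%) and 4 of 20 in knockdown had no control peak (20%, interval 5.73 to 43.7%, whole list 12.2%). For H3K79me3 they were 0 of 19 in control (upper limit of the interval 17.6%, whole list 8.72%) and 4 of 25 in knockdown (16%, interval 4.54 to 36.1%, whole list 27.3%). The intervals cover counting error only, and each holds the share of its whole list. On the alternative sequences the counts were 36 of 129, 15 of 104, 5 of 88 and 31 of 119 for control H3K79me2, knockdown H3K79me2, control H3K79me3 and knockdown H3K79me3. The control H3K79me2 share was 27.9% against 19.2% over the whole list. Peaks on these sequences include copies of the same sites, so no interval is given for them.

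The strongest peak without a partner was control H3K79me2 at chr6:31802627-31805878, with 226 tags over 3252 bp (14.1 RPM, exact Poisson 95% interval 12.3 to 16.1). H3K79me3 was called at this place in both lines. On 4 alternative sequences the matched site did have a knockdown H3K79me2 peak, of 9.21 RPM on apd_hap1, 8.37 on cox_hap2, 7.53 on dbb_hap3 and 10.3 on qbl_hap6, where control H3K79me2 had 11.5, 12.1, 12.7 and 12.4 RPM. In knockdown the H3K79me2 call was thus absent from the reference list at this site and present on each of the 4 alternative sequences matched to it.

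The next H3K79me2 peaks in control only were small. By score, the 4 that followed lay at chr6:31633957-31634639 (1.56 RPM), chr6:30525331-30526046 (1.31 RPM), chr6:30688118-30689014 (2.18 RPM) and chr6:31926015-31926413 (0.749 RPM). H3K79me2 in knockdown only was found at chr6:33257471-33258284 (1.45 RPM), chr6:33289596-33290402 (1.37 RPM), chr6:31239189-31239831 (1.07 RPM) and chr6:31627370-31628051 (1.07 RPM). These 8 peaks held 12 to 35 tags each and scored at most 113.4 on a scale whose lowest listed value is 50.

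H3K79me3 in knockdown only was weaker still. The 4 peaks lay at chr6:30525410-30525989 (18 tags, 1.10 RPM), chr6:33256383-33256769 (12 tags, 0.732 RPM), chr6:33290011-33290363 (11 tags, 0.671 RPM) and chr6:31926017-31926454 (12 tags, 0.732 RPM). None of these 4 lay on H3K79me2 of both lines. At 30525410 and 31926017 they overlapped the control-only H3K79me2 peaks named above, and at 33290011 the knockdown-only H3K79me2 peak. Cut to the same number of peaks per mark, the knockdown list had 0% of its reference H3K79me3 peaks without a partner.

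The marks lay together in most of the MHC. In the reference MHC a peak of the other mark in the same line overlapped 19 of 23 control H3K79me2 peaks (whole list 66.6%), 17 of 20 knockdown H3K79me2 peaks (whole list 83.1%), 19 of 19 control H3K79me3 peaks (whole list 81.6%) and 19 of 25 knockdown H3K79me3 peaks (whole list 74.8%). On the alternative sequences the counts were 85 of 129, 87 of 104, 84 of 88 and 92 of 119. For control H3K79me3 the 95% interval on the reference ran from 82.4 to 100%, just above the whole list. Its share on the alternative sequences was 95.5%, and 60% among the higher-scoring 50% of each list. Joined over both marks and lines, 16 of 27 regions of the reference MHC had all 4 peaks (59.3%), against 69 of 147 on the alternative sequences (46.9%) and 3940 of 8976 elsewhere (43.9%). Among the remaining 11 reference regions, 3 had H3K79me2 in control only beside H3K79me3 in both lines, 3 had knockdown H3K79me2 alone, and 2 had control H3K79me2 with knockdown H3K79me3.

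At matched sites the reference usually carried more tags than an alternative sequence. The median log2 ratio of RPM, alternative over reference, was -0.24 for control H3K79me2 (98 pairs of a site and a sequence), -0.26 for knockdown H3K79me2 (73 pairs), -0.45 for control H3K79me3 (79 pairs) and -0.24 for knockdown H3K79me3 (95 pairs). The lower value was on the alternative sequence in 62 of 98, 53 of 73, 60 of 79 and 60 of 95 pairs. At sites on at least 6 sequences the reference held a median of 19.9%, 21.7%, 22.8% and 19.1% of the RPM summed over all sequences called, in the same order. A site with a peak on fewer sequences has fewer shares, so these percentages are not compared between sites.

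The spread between sequences differed from site to site. At chr6:31505178-31509824, on all 8 sequences, control H3K79me2 had 19.3 RPM on the reference and 19.2 on ssto_hap7, against 7.68 to 9.86 on 5 others and 3.68 on apd_hap1. Knockdown H3K79me2 had 16.4 and 14.2 on the same pair, 6.16 to 8.52 on the 5 others and 2.81 on apd_hap1. Control H3K79me3 had 20.01 and 16.96, 8.92 to 9.80 and 2.05 RPM, and knockdown H3K79me3 had 20.2 and 20.5, 8.05 to 10.7 and 2.26 RPM. The same sequences were high and low in all 4 libraries. At chr6:28890106-28891890, on 7 sequences, the reference lay in the lower part of the range without being set apart: 3.75 RPM against 3.81 to 7.43 on the others in control H3K79me2, 4.11 against 3.42 to 6.16 in knockdown H3K79me2, 3.81 against 3.64 to 6.86 in control H3K79me3, and 4.88 against 4.21 to 8.30 in knockdown H3K79me3. The 6 matches at this site stand alone in their offset, which is the position on an alternative sequence less that on the reference. Each offset differs by more than 5 kb from that of the next matched site on its sequence. Spacing thus gives these matches little support, and they lie far from any other matched site.

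**Figure D5:**
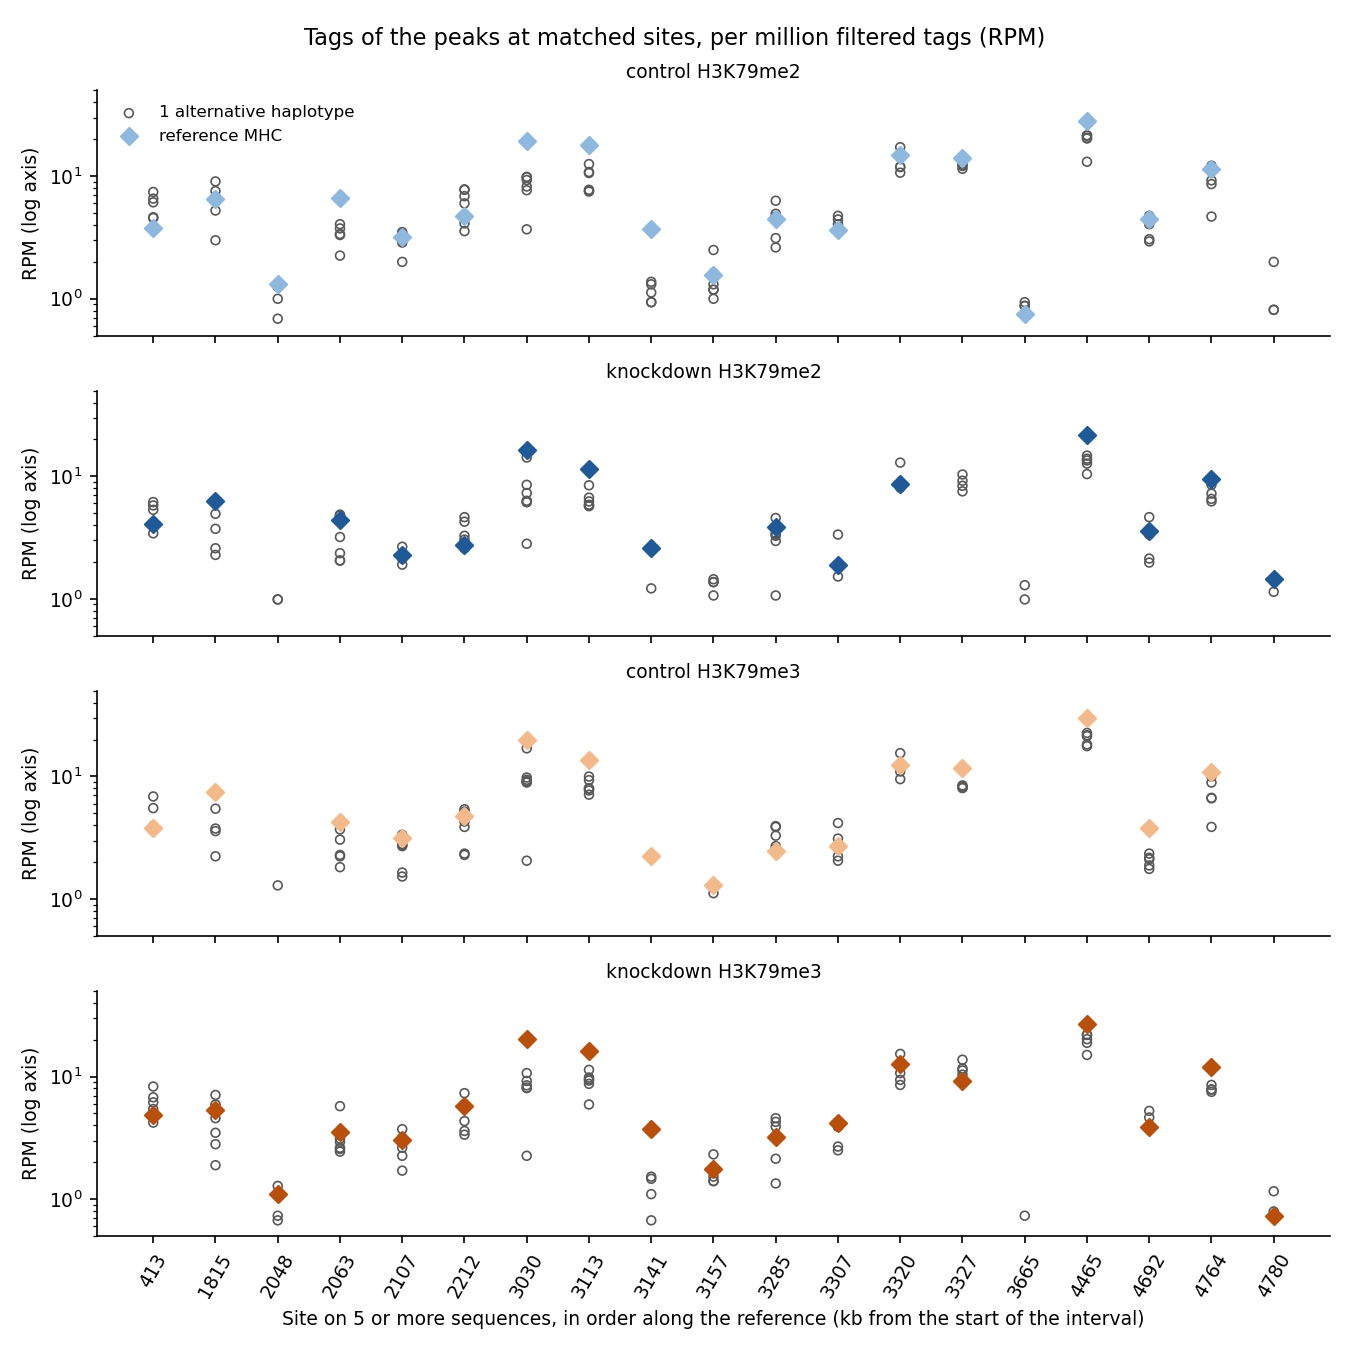
RPM (log axis) at the 19 sites found on 5 or more sequences, in order along the interval, in each ChIP library; diamonds are the reference MHC and open circles single alternative sequences. The reference lies at or near the top at sites such as 3030 kb and 4465 kb from the start of the interval. It lies in the lower part of the range at 413 kb. It is below every alternative sequence at 3307 kb in control H3K79me2 and at 3327 kb in knockdown H3K79me3, among other sites.

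The direction of change between lines was the same on every sequence called in both lines at some sites. The sequences share reads and are not replicates, so this agreement is no replicate check. Of 17 sites with H3K79me2 in both lines on at least 3 sequences, 7 were lower in knockdown on every one of those sequences and 1 was higher on every one. That 1 was chr6:33359562-33364975: on the reference, qbl_hap6 and ssto_hap7, H3K79me2 had 17.6, 20.9 and 20.5 RPM in control and 22.0, 26.6 and 21.1 in knockdown, and H3K79me3 had 13.6, 11.5 and 12.8 in control and 20.4, 30.9 and 27.9 in knockdown. Its summed log2 ratio was 0.24 for H3K79me2 and 1.06 for H3K79me3. For H3K79me3, 2 of 15 such sites were higher on every sequence and 0 were lower on every one; the other was chr6:33168657-33170323, with a summed log2 ratio of 0.84 over 6 sequences.

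The strongest site showed the pattern for H3K79me2 on most sequences. At chr6:32939886-32945891, control H3K79me2 had 28.4 RPM on the reference and 20.6, 13.1, 21.4, 20.3 and 21.5 on cox_hap2, mann_hap4, mcf_hap5, qbl_hap6 and ssto_hap7. Knockdown H3K79me2 had 21.5 on the reference and 13.5, 14.8, 12.7, 10.4 and 13.9 on the others. Knockdown was lower on 5 of 6 sequences, with mann_hap4 the exception. The mcf_hap5 match at this site stands alone in its offset, so spacing gives it little support. H3K79me3 there had 30.0, 21.7, 18.2, 22.6, 17.7 and 21.4 RPM in control and 26.8, 22.0, 18.9, 20.2, 15.0 and 21.8 in knockdown, lower on 3 of 6.

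Summing over sequences left the medians much as they were. Over the sequences with a peak in both lines, sites on at least 6 sequences had a median log2 ratio of -0.34 for H3K79me2 (1 of 14 above 0) and 0.19 for H3K79me3 (11 of 13 above 0). Within a site, the ratios of single sequences spread widely: the range from lowest to highest had a median of 1.12 log2 units over 17 sites for H3K79me2 and 1.02 over 15 sites for H3K79me3. The spread between regions matched to 1 site was thus larger than the median change between lines. Ratios of single sequences are therefore given here with those of the other sequences.

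The strongest region lay at one of 4 sites on the 7 alternative sequences. The region with the most H3K79me2 tags was matched to chr6:32939886-32945891 on cox_hap2 (4384564 to 4389332), mann_hap4 (4397251 to 4402092) and mcf_hap5 (4276941 to 4281829). The match on mcf_hap5 stands alone in its offset. On qbl_hap6 (4591720 to 4598179) and ssto_hap7 (4839778 to 4845447) the region with the most H3K79me2 tags was matched to chr6:33359562-33364975. On apd_hap1 (3117469 to 3120639) it was matched to chr6:31802627-31806212, and on dbb_hap3 (3081064 to 3085626) to chr6:31795517-31800047. For H3K79me3 the strongest regions were at the same sites on 6 of the 7 sequences. The exception was ssto_hap7, where chr6_ssto_hap7:4420787-4425414, matched to the strongest reference site, led with 21.4 RPM in control and 21.8 in knockdown.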

How the data were processed

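Peak lists of 6 libraries were analysed. Reads were aligned with Bowtie2 (version not given in the sources used here) to hg19, per the submitters' processing notes. Peaks were called in each library with MACS 1.4.2 without a control file, at a p cutoff of 1e-05, keeping no more than 1 tag per position, with the regional background taken over 10000 bp, per the file headers. The deposited tag numbers are raw counts. The deposited significance column is used as a score, since it is 10 times a negative log10 p with a lowest value of 50. The deposited fold enrichment is a ratio within a library. Both describe or rank peaks within a list only.

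Members and lists were chosen with earlier results of these data known. RPM is tags per 1000000 filtered tags. Overlaps were counted from 1 bp, and peaks of the 2 lines that overlap were joined as shared regions. A list holds only called peaks, so a missing peak is not a 0. Shares carry Clopper-Pearson and RPM exact Poisson 95% intervals, for counting error only. Median log2 ratios of RPM in the reference MHC carry an exact 95% interval from the ranks of their regions. Named in the reference MHC are, per mark, the 3 regions with most RPM, the 3 highest and 3 lowest ratios per kb, up to 5 peaks per list in 1 line only by score, and knockdown-only H3K79me3 on H3K79me2 of both lines; on each alternative sequence, the region with most tags per mark. Other sites named were chosen after their values were seen. So were the site matching, which scores offset changes (scale 2 kb, penalty weight 0.25) and widths, and the comparison at similar level.

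In a test on simulated data of 20 sequences with 25 sites, matching recovered 96.76% of 370 true pairs, and 98.08% of the pairs made were correct. The simulated sites were spread at random, while 10 of the 25 reference sites lay between 3 and 3.5 Mb. These rates thus need not hold for the real layouts. The rate of matches between unrelated layouts was not tested. An overlap step tested on 5745 control H3K79me3 peaks found 200 of 200 planted private peaks with 0 false ones. Alternatives were the higher-scoring 50% of each list, equal numbers of peaks, a reciprocal overlap of 50%, peaks within 1 kb joined, peaks on input peaks removed, only peaks wholly inside the interval, and tags per kb. Python 3.11.15, pandas 2.3.3, numpy 2.4.6, scipy 1.17.1 and matplotlib 3.10.9 were used. No sequence or gene is given, because an hg19 genome and annotation were not used here.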

Additional observations from a re-analysis of the deposited data

Results flagged for a closer look

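The 2 marks differed in direction between the lines in the MHC, and this difference between marks was not tested, since each group has 1 library. In the reference MHC the number of peaks in knockdown minus control came to -13.0% of control for H3K79me2 and 31.6% for H3K79me3. On the alternative sequences together it came to -19.4% and 35.2%. The median log2 ratio of RPM in regions with a peak in both lines was -0.36 for H3K79me2 and 0.17 for H3K79me3 in the reference MHC, and -0.40 and 0.19 on the alternative sequences. The interval of the reference H3K79me3 median, from the ranks of its regions, ran from -0.05 to 0.46. With the same number of peaks from both lists of a mark, the peak ratios of the reference MHC were 1 for both marks. Peak numbers elsewhere differed in the same directions, with ratios of 0.907 and 1.26.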

How the results depend on the processing

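Of 162 recomputed values for 33 results under 9 settings, 141 kept their direction and lay near the main value, 20 moved and 1 reversed. Near meant inside the Clopper-Pearson interval of the main share, or within 1.5-fold of a main ratio. It is a wide label. Under it fell knockdown-only reference H3K79me3 peaks at 16% and, with a reciprocal overlap of 50%, 32%. So did control H3K79me2 peaks per alternative sequence over the reference number, at 0.801 and, with the higher-scoring 50%, 0.543. On the alternative sequences the intervals count copies of a site as separate peaks. The cause of the moves was not tested. Among the 141, the 28 values without peaks on input peaks could not change, since no input peak lay on these sequences. The 16 values for only peaks wholly inside the interval were equal to the main values. Neither setting is thus a check of these results. With the higher-scoring 50% of each list, the H3K79me3 peak ratio on the alternative sequences reversed to 0.933 and that of the reference MHC came to 1. On those sequences the share of peaks in 1 line only then was 42.1% for control H3K79me2, 4.35% for knockdown H3K79me2 and 31.1% for control H3K79me3, and in the reference MHC 22.2% for control H3K79me3. On the alternative sequences the other mark overlapped 91.3% of knockdown H3K79me2, 60% of control H3K79me3 and 50% of knockdown H3K79me3 peaks, and the mean number of knockdown H3K79me2 peaks per alternative sequence was 0.411 of the reference number. With equal numbers of peaks, the reference peak ratios came to 1 for both H3K79me2 and H3K79me3, peaks in knockdown only made up 0% of reference and 14.1% of alternative H3K79me3 peaks, and overlap with the other mark on the alternative sequences was 74.0% for knockdown H3K79me2 and 85.9% for knockdown H3K79me3. With a reciprocal overlap of 50%, peaks in 1 line only on the alternative sequences were 38.8% of control H3K79me2 and 24.0% of knockdown H3K79me2 peaks, while the other mark overlapped 64.7% of knockdown H3K79me3, 88.6% of control H3K79me3 and 74.0% of knockdown H3K79me2 peaks. No paired analysis was possible because each group has 1 library. Peaks of 11 or 12 tags, just above the calling threshold, limit what a missing call can show.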

Other observations

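Of the 37 sites, 12 had no peak on the reference MHC in any library, and 5 of these lay on at least 2 alternative sequences. All 5 were weak. About 4790.83 kb from the start of the interval, knockdown H3K79me2 was called on 4 sequences, with 1.29 RPM on cox_hap2, 2.05 on dbb_hap3, 0.989 on mcf_hap5 and 2.66 on qbl_hap6, and control H3K79me2 on 3 of them, with 1.12 on cox_hap2, 1.44 on mcf_hap5 and 0.687 on qbl_hap6. On qbl_hap6 this gave the highest H3K79me2 ratio of RPM of all members, a log2 of 1.955 (SE 0.50, counting error only), from 11 tags over 385 bp in control and 35 tags over 1497 bp in knockdown. Per kb the log2 ratio of this region was -0.0040.

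About 3461.43 kb from the start, control H3K79me2 had 0.999, 1.498 and 0.687 RPM on cox_hap2, mcf_hap5 and qbl_hap6, and knockdown H3K79me2 had 1.22, 1.37 and 1.37 on dbb_hap3, mcf_hap5 and qbl_hap6. About 1432.61 kb from the start, dbb_hap3 and mcf_hap5 had 1.19 and 0.936 RPM of control H3K79me2, 1.75 and 1.67 of knockdown H3K79me2, and 1.22 each of knockdown H3K79me3, without a control H3K79me3 peak. The site about 1701.75 kb from the start was called on 4 sequences, each in a single library: control H3K79me2 on dbb_hap3 and mcf_hap5, knockdown H3K79me2 on mann_hap4 and control H3K79me3 on ssto_hap7. The site about 2138.21 kb from the start was called on 3 sequences, also in a single library each. The lists hold called peaks alone, so a site listed on alternative sequences and not on the reference is not shown to be without tags there.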
